A study of Drosophila melanogaster with 2 samples.

Results

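The genes described here are 9 genes of programmed cell death in Drosophila melanogaster: hid, rpr, grim and skl, Diap1, Dark, Dronc, Drice and Dcp-1. They were chosen by name as the core of the apoptosis pathway, with earlier results of these data known. They are 9 of the 13945 protein-coding genes annotated on the 6 chromosome arms. For each of them, every peak was taken whose summit lay in the gene body or within 10 kb of it. The peaks come from chromatin immunoprecipitation followed by sequencing (ChIP-seq) of CG9705, a cold-shock domain protein, in whole wandering L3 larvae, the stage just before pupation. The 2 replicates were separate biological samples of 1 transgenic line that stably expressed CG9705 with GFP at its C terminus, with both sexes pooled, and there was no other group. The labels contradict each other on the libraries, since a free-text note names an input control while the antibody and assay fields describe a transcription factor ChIP. They were treated as ChIP. How strongly and in which tissues the fusion was expressed is not stated, and in whole larvae the tissue behind a peak cannot be told.

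In flies, hid, rpr, grim and skl encode small proteins that bind the inhibitor of apoptosis Diap1 and release the caspases it holds in check. Freed from Diap1, the initiator caspase Dronc is activated on a scaffold built by Dark, the fly homologue of Apaf-1, and cleaves the effector caspases Drice and Dcp-1. At the end of larval life, the steroid hormone ecdysone switches on rpr and hid in larval tissues that are destroyed during metamorphosis, so the pathway is about to be used on a large scale at the stage sampled.

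Peaks were deposited as 4 lists: a relaxed list of 30000 peaks for each replicate, another of 30000 for the replicates pooled, and 3533 optimal peaks, those the authors kept as reproducible. Each peak has a summit and a score, which is the authors' own and on a scale that is not stated. Scores were therefore used only within a list, mainly as a rank with 1 the strongest, and the 3533 optimal peaks were the 3533 highest-scoring pooled ones. As the error of each count, the same count was made with the 3533 best peaks of replicate 1 and of replicate 2. Sequencing depth is unknown, because the lists carry no read counts.

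Of the 9 cell death genes, hid and Drice had an optimal summit within 500 bp of a transcript start. That is 2 of 9, against 19.1% of all protein-coding genes, so the group as a whole did not stand apart from other genes at its starts. The best peaks of replicate 1 gave 3 of 9, with Dcp-1 added, against 18.2% of all genes. Those of replicate 2 gave 3 of 9, with Diap1 added, against 19.7%. In the relaxed pooled list 7 of 9 had a summit at a start, against 53.9% of all genes, and grim and skl were the 2 without one. With the window of the gene body and 10 kb on each side, 6 of 9 genes held an optimal summit, against 57.4% of all genes, and 8 of 9 held a relaxed pooled summit, against 89.2%. These shares too were near the background, but the peaks were spread unevenly among the 9 genes.

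The 6 windows with an optimal summit held 15 such summits in all. Diap1 had 5 and hid had 4, while Dark and Drice had 2 each, Dronc and Dcp-1 had 1 each, and rpr, grim and skl had 0. Over all protein-coding genes the median was 1 and 42.6% had 0. More optimal summits than in 97.7% of genes were thus found around Diap1, and more than in 94.1% around hid. The best peaks of replicate 1 gave 4 at Diap1 and 5 at hid, and those of replicate 2 gave 6 and 4. Of the 5 optimal summits at Diap1, 2 lay only 199 bp apart. Both genes are long, at 12625 bp for Diap1 and 17897 bp for hid. Per length of window Diap1 had 1.53 summits per 10 kb and hid 1.06 per 10 kb, against a median of 0.398 per 10 kb. By that measure Diap1 was above 95.9% of genes and hid above 88.1%. The 15 summits ranked from 216 to 3382 in the pooled list, with a median rank of 1035. The highest −log10 q value of the list was carried by 13 of them. It was shared by 2929 pooled peaks, all of them among the 3533 optimal peaks, so most optimal peaks carried it.

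**Figure D1:**
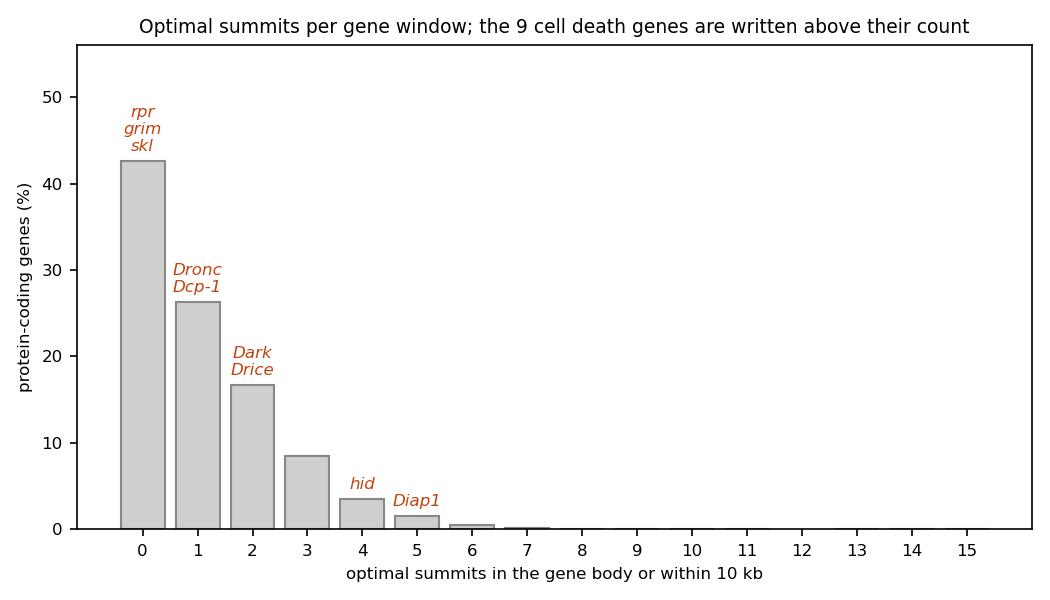
Number of optimal summits in the gene body or within 10 kb (horizontal axis) against the percent of the 13945 protein-coding genes with that number (vertical axis); each cell death gene is written above its own count. Diap1 with 5 and hid with 4 stand in the right tail, whereas rpr, grim and skl share the bar at 0 with 42.6% of genes.

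The gene hid (head involution defective) is a Diap1 antagonist whose protein is anchored at mitochondria. It lies on the minus strand of chromosome arm 3L at chr3L:18167745-18185641 (dm6), with 2 annotated transcripts that share 1 start. Its strongest peak, chr3L:18185786-18186149, was intergenic, with the summit 330 bp upstream of that start, and hid was the only gene with a start within 500 bp. The other 3 optimal peaks lay farther upstream, with summits at 7382, 8885 and 9580 bp, between hid and the noncoding gene lncRNA:CR45234. The start of lncRNA:CR45234 was nearer to them than that of hid, at 3149, 1646 and 951 bp. For the summits at 8885 and 9580 bp the nearest protein-coding start was that of CG7320 and not of hid. Position alone does not assign these 3 peaks to hid. None lay in the body of hid. The 300 bp around 3 of these summits (RefSeq Release 6, read on the strand of hid) are printed to show the start-proximal site beside the 2 upstream sites that held GAGAG, the core of the GAGA factor motif. Capitals mark GAGAG or its reverse complement CTCTC.
hid 330 bp upstream (chr3L:18185821-18186120): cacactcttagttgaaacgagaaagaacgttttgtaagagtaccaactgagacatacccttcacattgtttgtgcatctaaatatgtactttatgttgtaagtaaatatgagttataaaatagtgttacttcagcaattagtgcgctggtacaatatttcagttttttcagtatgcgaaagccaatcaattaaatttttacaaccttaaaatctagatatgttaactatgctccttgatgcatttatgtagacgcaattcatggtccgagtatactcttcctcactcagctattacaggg
hid 7382 bp upstream (chr3L:18192873-18193172): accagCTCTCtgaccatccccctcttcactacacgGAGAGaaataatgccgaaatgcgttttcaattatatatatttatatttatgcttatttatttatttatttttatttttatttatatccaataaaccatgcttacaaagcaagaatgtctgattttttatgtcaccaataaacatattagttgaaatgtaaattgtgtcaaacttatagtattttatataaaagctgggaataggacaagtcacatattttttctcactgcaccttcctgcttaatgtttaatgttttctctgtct
hid 8885 bp upstream (chr3L:18194376-18194675): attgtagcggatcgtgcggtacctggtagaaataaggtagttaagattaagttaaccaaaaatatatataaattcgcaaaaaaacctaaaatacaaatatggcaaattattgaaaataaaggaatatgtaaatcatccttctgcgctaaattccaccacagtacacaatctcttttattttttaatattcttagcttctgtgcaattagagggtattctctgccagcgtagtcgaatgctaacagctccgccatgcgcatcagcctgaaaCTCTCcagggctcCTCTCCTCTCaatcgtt

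The site 330 bp upstream of hid had a score of 544.8 and ranked 216 in the pooled list, 305 in replicate 1 and 179 in replicate 2. It was the best-ranked peak near the 9 genes in the pooled list and in replicate 2. The site at 7382 bp had a score of 458.1 and ranked 324 in the pooled list, 248 in replicate 1 and 445 in replicate 2. Those at 8885 and 9580 bp scored 308.2 and 281.4 and ranked 702 and 816 in the pooled list. All 4 sites in the hid window were thus well inside the best peaks of both replicates, with lowest ranks of 748 in replicate 1 and 892 in replicate 2. The relative order of the strongest pair differed, since replicate 1 put the distal site first and replicate 2 the site at the start.

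The sites upstream of hid were close together. The summits of the 3 distal ones were 1503 and 695 bp apart, and 7052 bp separated the nearest of them from the site at the start. Only 82 protein-coding genes, or 0.588%, had at least 4 optimal summits within 10 kb upstream of the 5′ end of the gene. The threshold of 4 was the count of hid itself, and starts inside a gene were not used. The relaxed pooled list held 14 summits around hid, 9 upstream, 4 in the gene body and 1 downstream. The 4 in the body, all in introns, ranked from 8829 to 26143, far below the 4 optimal sites. The strongest upstream peak outside the optimal set lay at 5081 bp with pooled rank 5786; it was among the best peaks of replicate 1, at rank 3243, and raised the count around hid to 5 there, against 4 in replicate 2.

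**Figure D2:**
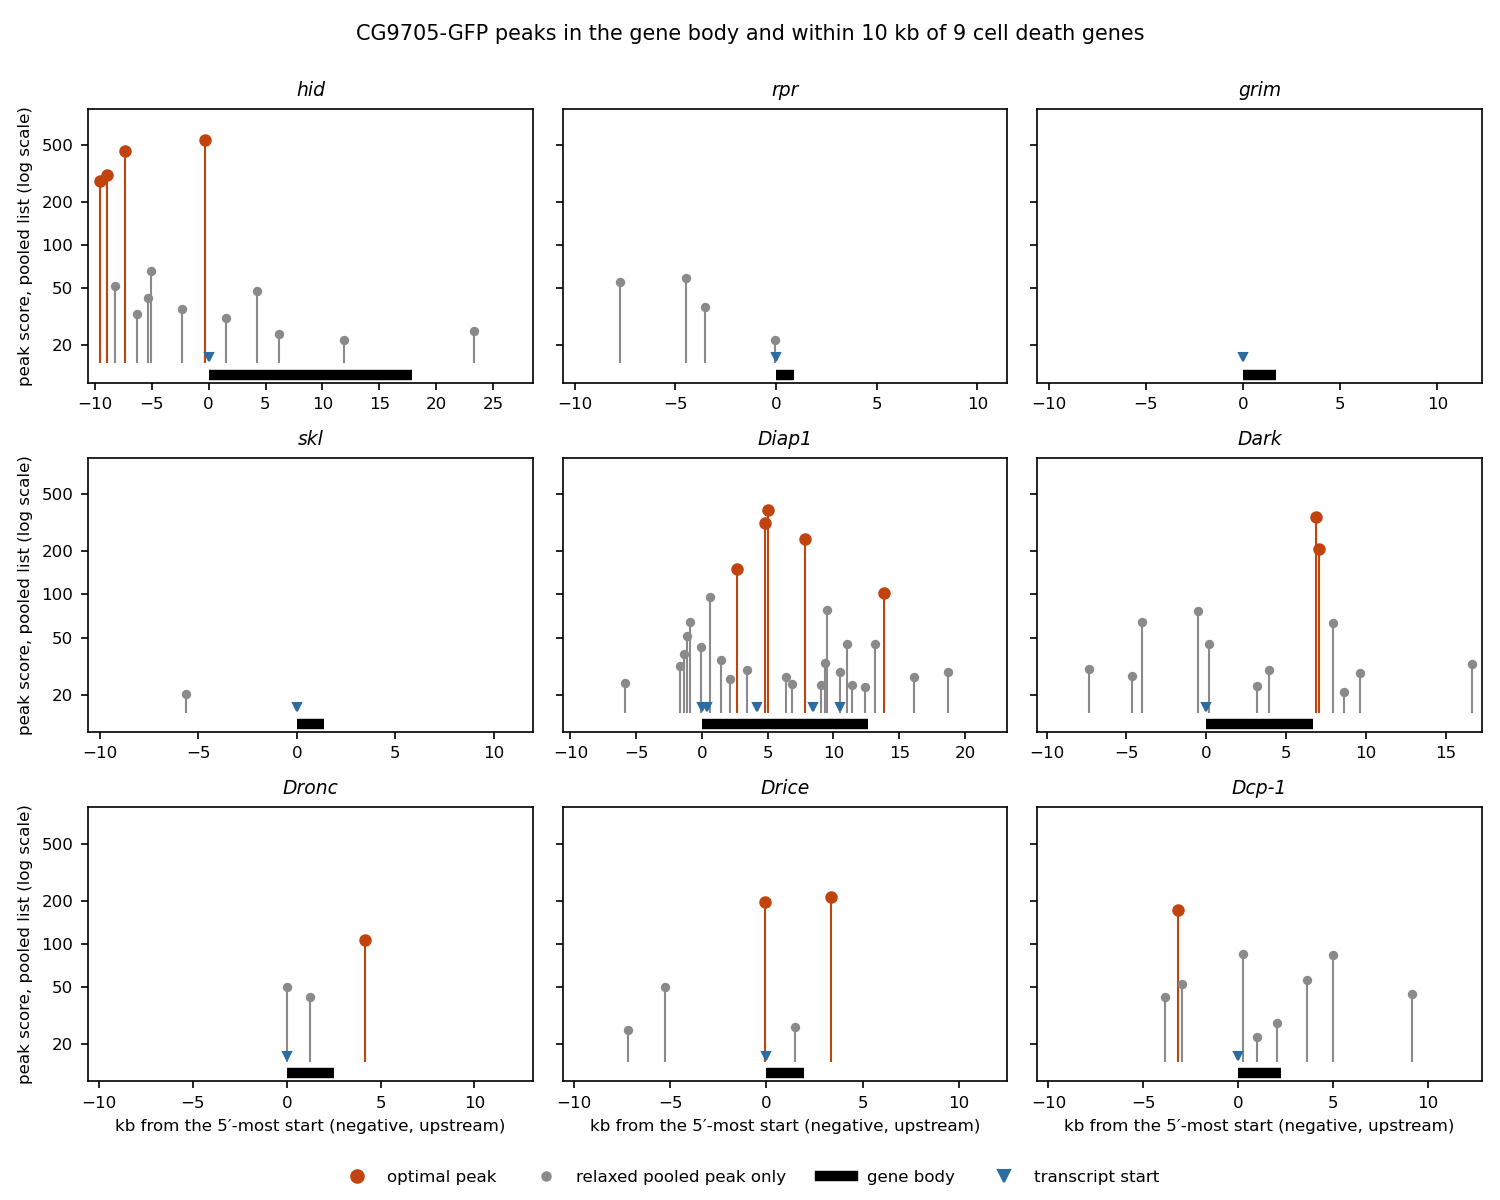
Peaks of the pooled list around each of the 9 cell death genes: horizontal axis, distance in kb from the start nearest the 5′ end of the gene, with upstream negative; vertical axis, peak score on a log scale. Optimal peaks are large orange points, other relaxed peaks small grey points, black bars gene bodies and blue triangles transcript starts. The 4 optimal peaks of hid all lie upstream, 4 of the 5 of Diap1 lie in its body, and grim has no peak at all.

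The other 3 Diap1 antagonists, rpr (reaper), grim and skl (sickle), had no optimal summit in their windows. The gene rpr, at chr3L:18397535-18398435 on the minus strand, had 4 relaxed summits with the replicates pooled and 5 with either alone. A weak one lay 45 bp upstream of its start, with rank 26413 in the pooled list and rank 28287 in replicate 2, and replicate 1 listed none within 500 bp. Its strongest peak was intergenic, 4443 bp upstream, with rank 6802 in the pooled list; the strongest in replicate 1 ranked 7032 at 3798 bp upstream and that in replicate 2 ranked 5769 at 4452 bp upstream. The other pooled peaks of rpr lay 3533 and 7725 bp upstream with ranks 12506 and 7323, so all 4 pooled peaks of rpr were upstream and below the optimal set. Replicate 1 also listed one downstream, 4730 bp past the 3′ end, at rank 13384.

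The gene skl, at chr3L:18438561-18439942, had 1 relaxed pooled summit, 5630 bp upstream with rank 29027, close to the end of the list. Replicate 1 listed 3 summits around skl, the best at rank 22573, and replicate 2 listed 1 at rank 25757. The gene grim, at chr3L:18302719-18304417, had 0 in every list. Windows with 0 relaxed summits are uncommon but not rare, at 10.8% of protein-coding genes in the pooled list, 9.75% in replicate 1 and 7.27% in replicate 2. A gene with no listed peak may still have signal below the cut of the relaxed lists, which these files do not show.

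The 4 antagonist genes lie in 1 interval of 272 kb on arm 3L, all on the minus strand, in the order hid, grim, rpr, skl, with rpr starting 212.8 kb and skl 254.3 kb from the start of hid. The interval held 6 optimal summits, or 2.2 per 100 kb against 2.65 on the whole arm, and 60 relaxed pooled summits, or 22.0 per 100 kb against 23.4 on the arm. Its overall density was thus close to that of the arm, but its optimal peaks were all at the hid end. Besides the 4 sites of hid, they were a pair of peaks 50.3 and 51.0 kb upstream of hid, at chr3L:18235870-18236171 and chr3L:18236483-18236713, with scores of 293.4 and 399.1 and ranks 760 and 443. The start nearest to the pair was that of lncRNA:CR45937, 1192 and 1840 bp away, and no start lay within 500 bp of either. Annotated in the interval besides the 4 antagonists were the protein-coding genes CG7320, CheA75a, CG5103 and CG13700 and 9 noncoding genes: lncRNA:CR45234, lncRNA:CR45935, lncRNA:CR45937, lncRNA:CR45936, lncRNA:CR43306, lncRNA:CR45975, asRNA:CR45974, lncRNA:CR46353 and lncRNA:CR46215. Apart from hid, none of these genes had an optimal summit within 500 bp of its start.

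Beyond that pair, grim, rpr and skl shared 1 stretch of 404 kb without an optimal summit, which ended 455.1 kb from the start of hid, inside the gene MYPT-75D. It was the 8th longest of 3527 distances between neighbouring optimal summits over the 6 arms, and it was longer than 99.8% of them, with a median distance of 12.7 kb and a longest of 1240 kb. That is a share of distances and not of genes, and the share of genes in so long a stretch is not given here. The same stretch of 404 kb was free of the best peaks of replicate 1, where it was the 5th longest, and of replicate 2, where it was the 8th. It was not free of weak peaks, since 55 relaxed pooled summits lay inside it and more than 500 bp from either end, at best at rank 5756. Replicate 1 listed 59 there, at best at rank 5350, and replicate 2 listed 52, at best at rank 4500. The stretch contained 24 protein-coding genes, grim, rpr and skl included. From the start of each to the nearest optimal summit the distance was 67.8 kb for grim, 162 kb for rpr and 201 kb for skl, compared with 330 bp for hid.

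**Figure D3:**
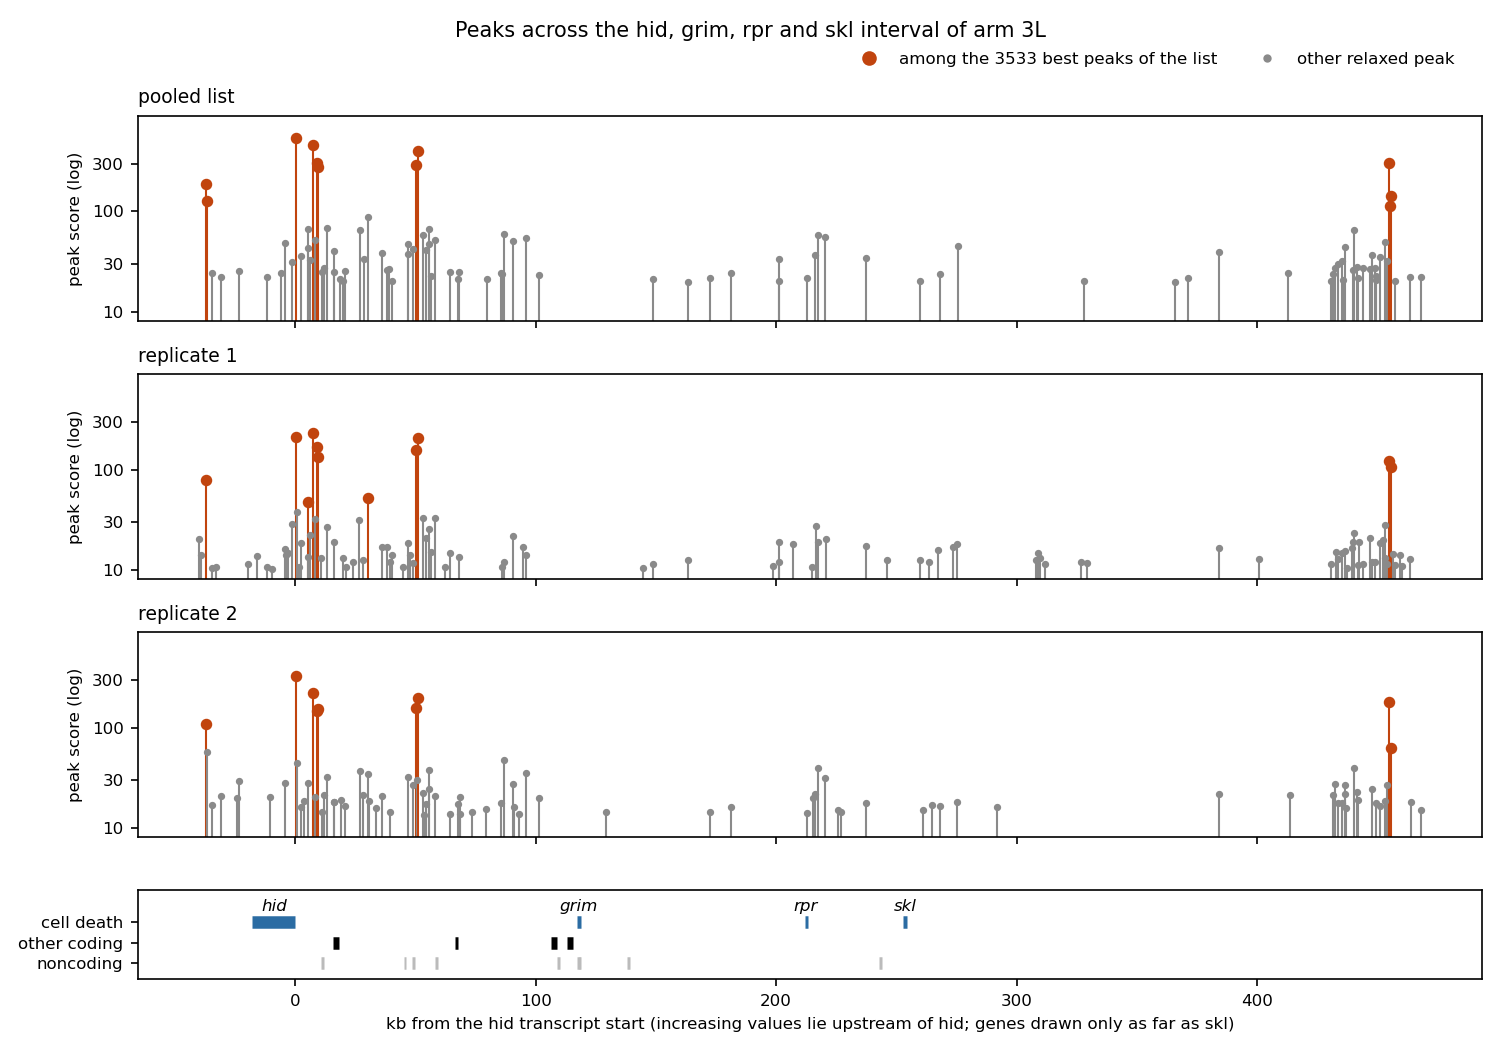
Peaks in the pooled list, replicate 1 and replicate 2 along arm 3L from before hid to the end of the stretch without optimal peaks: horizontal axis, kb from the start of hid; vertical axes, peak score on a log scale, whose levels are not comparable between panels; bottom panel, genes as far as skl. Orange points are the 3533 best peaks of each list and cluster at hid and 50.3 to 51.0 kb upstream of it, while only grey relaxed peaks surround grim, rpr and skl in all 3 lists.

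Diap1 encodes the inhibitor of apoptosis that the 4 antagonists bind, a ubiquitin ligase that restrains Dronc and the effector caspases. It lies at chr3L:16038410-16051034 on the minus strand, with 6 transcripts from 5 starts. Of its 5 optimal summits 4 were in introns and 1 was 1188 bp past its 3′ end. None was within 500 bp of a start: the nearest, 597 bp upstream of the fourth start from the 5′ end, fell just outside. The strongest lay 837 bp downstream of the third start, in the window printed here from RefSeq Release 6 on the strand of Diap1, chosen because only 1 replicate listed it. Capitals mark a match to CTCTC, the reverse complement of GAGAG.
Diap1 837 bp downstream (chr3L:16045859-16046158): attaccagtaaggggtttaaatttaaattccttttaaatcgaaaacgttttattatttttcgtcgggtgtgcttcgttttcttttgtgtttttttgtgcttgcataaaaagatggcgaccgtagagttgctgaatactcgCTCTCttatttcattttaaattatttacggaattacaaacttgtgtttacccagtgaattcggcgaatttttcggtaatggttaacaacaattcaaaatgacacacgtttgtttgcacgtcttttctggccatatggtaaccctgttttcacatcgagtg

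That peak had a score of 391.2, pooled rank 468 and rank 514 in replicate 2, and replicate 1 listed no peak that matched it. Its neighbour, with the summit 199 bp away at 638 bp downstream of the same start, had a score of 312.9 and ranked 685 in the pooled list, 348 in replicate 1 and 1293 in replicate 2. This intron site was thus 1 peak in replicate 1 and 2 peaks in replicate 2 and in the pooled list. The optimal peak 597 bp upstream of the fourth start ranked 1035 in the pooled list, 583 in replicate 1 and 1497 in replicate 2. A narrower one, 121 bp wide and 1507 bp upstream of the third start, ranked 2048 in the pooled list, 1454 in replicate 1 and 3031 in replicate 2. The one past the 3′ end, in an untranslated exon of CG5895, ranked 3382 in the pooled list and 4228 in replicate 2, outside the best 3533 peaks of that replicate.

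Relaxed peaks were numerous around Diap1 too. The relaxed pooled list held 27 summits in its window, more than around 98.4% of genes, replicate 1 held 25, more than 98.0%, and replicate 2 held 27, more than 98.6%. Of these pooled peaks 3 lay within 500 bp of a start. The best, 215 bp downstream of the second start from the 5′ end, ranked 3691, just below the optimal set. It ranked 2439 in replicate 2, while the best start peak of replicate 1, at 178 bp, ranked 9178. Diap1 was therefore counted with a peak at a start among the best peaks of replicate 2 but not among those of replicate 1.

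Dark, the scaffold of the fly apoptosome, lies at chr2R:17020027-17026703 on the plus strand. Both of its optimal summits lay past its 3′ end, by 217 and 416 bp, and near the start of the noncoding gene asRNA:CR44390, which was not the only start within 500 bp of them. The stronger had a score of 347.3 and ranked 555 in the pooled list, 821 in replicate 1 and 403 in replicate 2. It was 73 bp downstream of the start of asRNA:CR44390. The weaker had a score of 208.5 and ranked 1294 in the pooled list, 1603 in replicate 1 and 1343 in replicate 2, 126 bp upstream of that start. At its own start Dark had only relaxed peaks, the best at 488 bp upstream with pooled rank 4780. That summit was 17 bp upstream of the start of Paip1, and a second one 185 bp downstream of the start of Dark ranked 9524.

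Dronc, the initiator caspase, lies at chr3L:9968479-9971002 on the plus strand. Its single optimal summit was 1657 bp past its 3′ end, in an intron of vnc and CG42455 and 97 bp upstream of a start of each. With a score of 106.0 and a pooled rank of 3200 it was near the end of the optimal set, and it ranked 3256 in replicate 1 and 3121 in replicate 2. At its own start Dronc had a relaxed peak 13 bp downstream that ranked 8455 in the pooled list, 8666 in replicate 1 and 13289 in replicate 2. The start of CG6685 lay 175 bp from the same summit. No optimal peak was thus nearer to Dronc than to another gene.

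Drice, the main effector caspase of the fly, lies at chr3R:29799658-29801584 on the plus strand and was the only caspase gene of the 3 with an optimal summit at its start. That peak, chr3R:29799544-29799647, was 104 bp wide, the narrowest of the 15, with the summit 82 bp upstream. It had a score of 194.6 and ranked 1421 in the pooled list, 1764 in replicate 1 and 1350 in replicate 2. The start of Rnb lay 222 bp from the same summit, so it stood between 2 neighbouring starts. The 300 bp around it (RefSeq Release 6, strand of Drice) are printed as the only caspase start in the optimal set, and they held none of the motifs searched.
Drice 82 bp upstream (chr3R:29799426-29799725): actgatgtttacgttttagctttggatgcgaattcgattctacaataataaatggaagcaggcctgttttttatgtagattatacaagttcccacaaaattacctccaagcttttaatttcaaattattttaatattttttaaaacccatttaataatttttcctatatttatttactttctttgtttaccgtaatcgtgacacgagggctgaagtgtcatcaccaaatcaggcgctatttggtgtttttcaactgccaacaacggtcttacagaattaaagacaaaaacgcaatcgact

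A second optimal summit in the Drice window, 1446 bp past its 3′ end, lay 85 bp upstream of Etfb, a subunit of the electron transfer flavoprotein, and 166 bp upstream of CG7789. It had a score of 211.2 and ranked 1264 in the pooled list, 1810 in replicate 1 and 983 in replicate 2. Although slightly stronger in the pooled list than the peak at Drice itself, it ranked below it in replicate 1 and above it in replicate 2, so the order of the pair differed between the replicates.

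Dcp-1, the other effector caspase, lies at chr2R:23551313-23553547 on the plus strand. Its single optimal summit was 3187 bp upstream, 25 bp downstream of the start of wmd and 113 bp from that of levy, which encodes a subunit of cytochrome c oxidase. It had a score of 172.2 and ranked 1702 in the pooled list, 2008 in replicate 1 and 1422 in replicate 2. At its own start Dcp-1 had a relaxed peak 254 bp downstream, with the start of pita 16 bp from the summit. This peak ranked 4271 in the pooled list and 6495 in replicate 2, but 3201 in replicate 1. Dcp-1 thus had a start peak among the best peaks of replicate 1 alone.

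**Figure D4:**
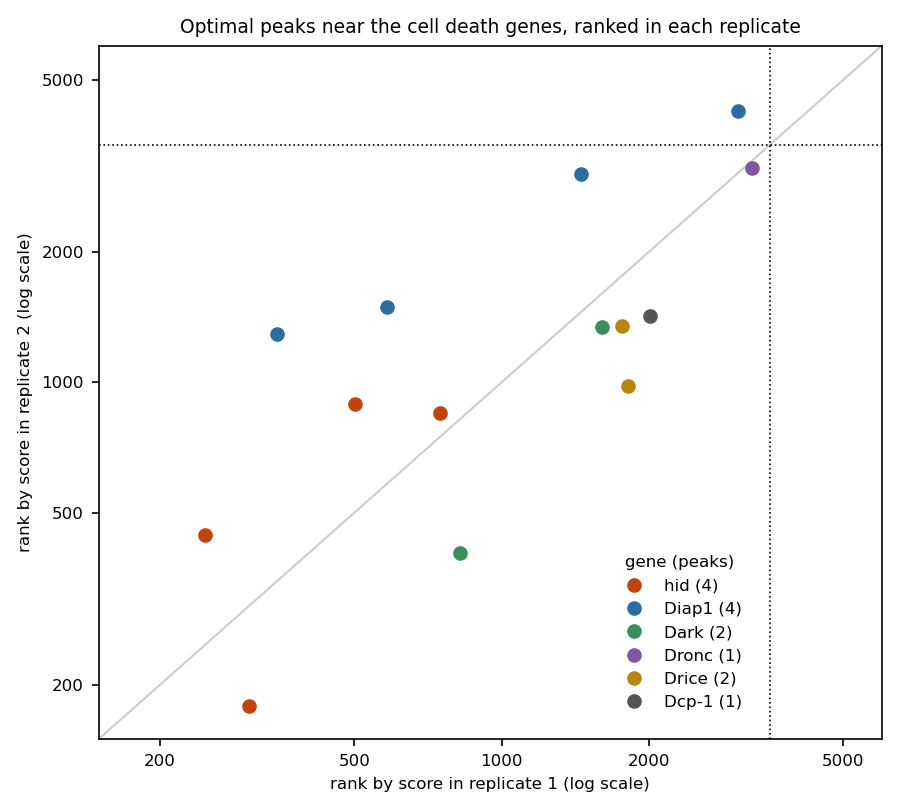
Rank by score in replicate 1 (horizontal axis) against replicate 2 (vertical axis), both log scales with strong peaks at the lower left, for the 14 optimal peaks around the cell death genes that had a summit within 100 bp in both replicates. Dotted lines mark rank 3533; the 2 strongest hid peaks lie closest to the corner, the Diap1 peaks rank better in replicate 1, and 1 Diap1 peak is above the line of replicate 2.

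Among the 15 optimal summits, 12 had a peak with at least 50% reciprocal overlap in both replicates, and 14 had a summit within 100 bp in both. The exception by both measures was the Diap1 peak that replicate 1 did not split. Because both replicates went into the choice of optimal peaks, these counts describe the match and do not test it. The 4 matched Diap1 peaks all ranked better in replicate 1 than in replicate 2. Of the 15 summits 4 were in the body of a cell death gene, 6 were upstream and 5 downstream. The nearest annotated start belonged to 1 of the 9 genes for only 5 summits, which were at hid, Diap1 and Drice. It belonged to another protein-coding gene for 5 and to a noncoding gene for the other 5. At the caspase and Dark windows the peaks thus sat mostly at starts of neighbouring genes, whereas at hid and Diap1 they did not. Within 500 bp of any annotated start were 7 of the 15 summits, against 58.1% of all 3533 optimal summits.

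A set of 6 short motifs were searched on both strands of the 300 bp windows around the 15 optimal summits. GAGAG was found in 3 of the 15, at the 7382 and 8885 bp sites of hid and in the Diap1 intron, against 32.9% of all 3533 optimal windows. TGANTCA, the AP-1 site, was found in 1, the Diap1 window 1507 bp upstream of the third start, against 6.51% of all windows. TATCGATA, the DNA replication-related element, and its core CGATA, which that sequence contains, were found in 1, that of Dcp-1, against 6.82% and 42.3% of all. Neither CACGTG, an E-box, nor AGGTCA, a single repeat unit bound by nuclear receptors such as the ecdysone receptor, was found in any of the 15, against 3.23% and 5.09% of all windows. These are matches of letters in fixed windows, of which 2 overlap at Diap1 and 2 at Dark. The GC content of the 15 windows ran from 29.0 to 43.3% with a median of 35.0%, against a median of 37.0% over all optimal windows.

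Beyond the core, 36 other cell death genes were listed by role, also with earlier results of these data known. Of these, 13 had an optimal summit within 500 bp of a start, or 36.1%, against 19.1% of all protein-coding genes. The best peaks of replicate 1 gave 12, against 18.2% of all genes, and those of replicate 2 gave 14, against 19.7%. In the relaxed pooled list 32 of 36 did, or 88.9%, against 53.9%. Neither these shares nor the difference from the 2 of 9 core genes was tested. Several of the peaks are shared with a neighbouring gene: with each summit given only to its nearest start, 9 of the 36 were left. The share of all genes under that rule is not given here, and the 19.1% does not serve as its comparison.

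By role, the genes of DNA damage and stress signalling had 4 of 6 at an optimal peak, 2 of them shared with a nearer gene. They were mei-41, the fly ATR kinase, at rank 1046 with the start of TH1 also in reach, p53 at rank 1303, tefu, the fly ATM kinase, at rank 1613, and lok, the fly Chk2 kinase, at rank 1975. The summits of tefu and lok were nearer to Hsc70-4 and barr. Of the 9 genes of the death receptor and JNK pathway 3 were at an optimal peak, led by puc, the JNK phosphatase, with a score of 278.5, rank 834 and the summit 5 bp upstream of a start. The others were the kinase Tak1 at rank 2023 and the adaptor Traf4 at rank 2221. Of 7 mitochondrial and nuclease genes 3 were called: Cyt-c-d at rank 755, 367 bp downstream of its start but nearer to CG31808, the nuclease Drep4 at rank 1871, nearer to Uvrag, and the mitochondrial protease HtrA2 at rank 2214, with mRpL11 in reach. Of 5 engulfment genes 2 were called, the adaptor ced-6 at rank 1553 and the receptor drpr at rank 2891. The drpr peak was outside the best peaks of replicate 1, at rank 4267.

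In the remaining roles, of 3 other members of the inhibitor family Det was called, at rank 3179 with m-cup in reach. Its peak was outside the best peaks of replicate 2, at rank 3829. None of 4 other caspases or 2 genes of the Bcl-2 family was called. Of the genes with only a relaxed peak at a start, those with the highest scores were Cyt-c-p at rank 3542, crq at 4038, bsk, the JNK kinase, at 4326 and Diap2 at 5511. Damm, wgn, Drep1 and NimC4 had no pooled peak at a start. The optimal counts by role, in groups of 2 to 9 genes, were not tested against the 19.1% of all protein-coding genes.

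**Figure D5:**
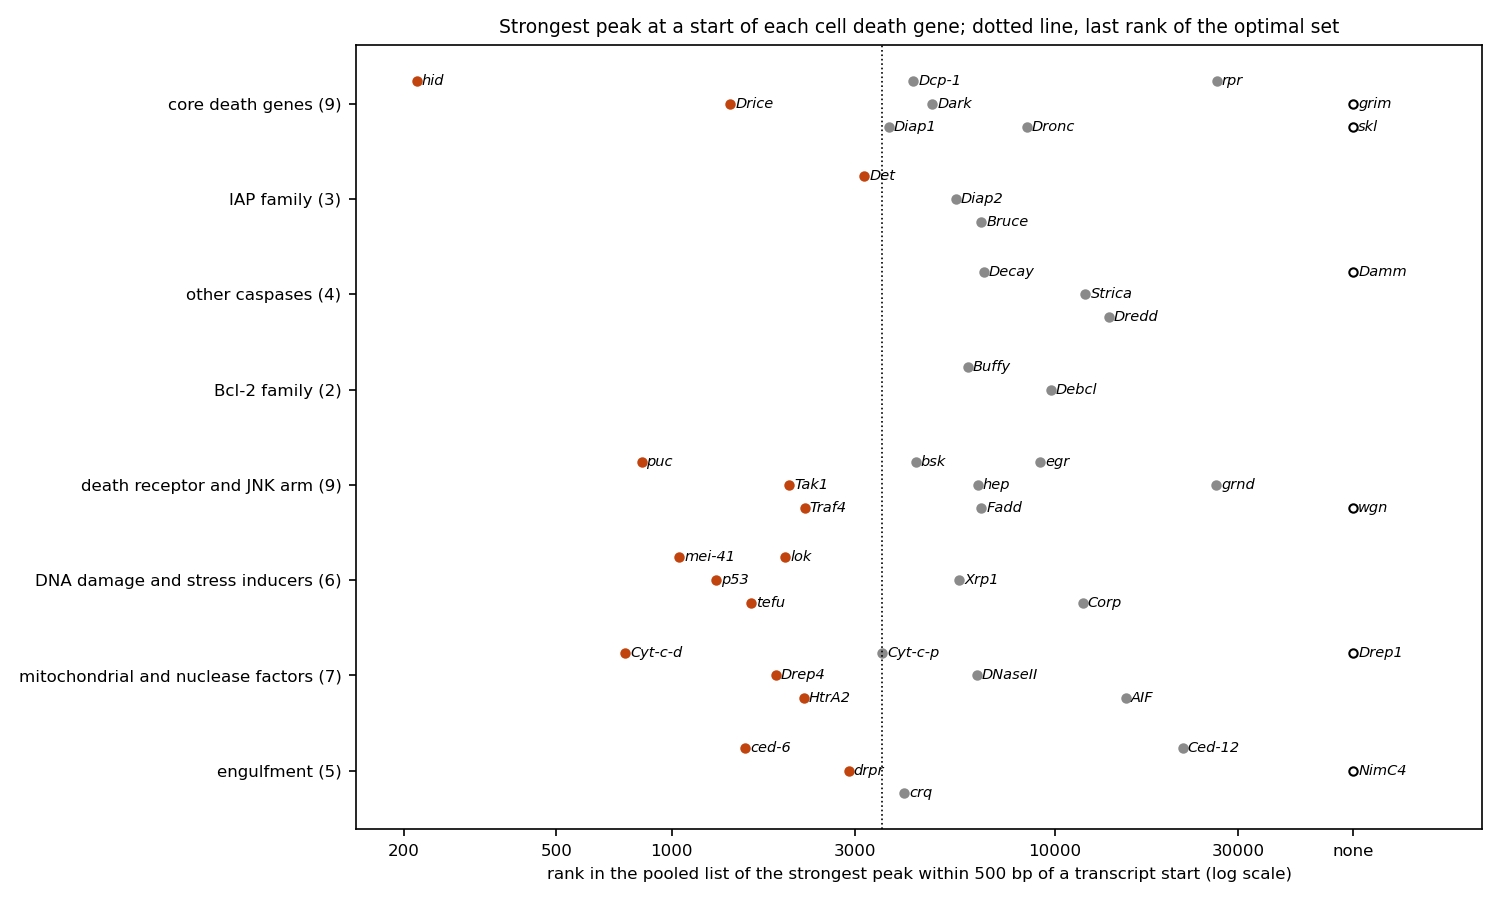
Rank in the pooled list (horizontal axis, log scale, strong at the left) of the strongest peak within 500 bp of a start of each gene, for the 9 core genes (top row) and 36 other cell death genes by role. Orange points are optimal peaks, grey points relaxed peaks and open circles genes with none; hid at rank 216 is the leftmost of all, and rpr at 26413 is the lowest of the core genes that have one.

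The rules have edges that decide some of these counts. Just inside the 500 bp limit was hid at 330 bp and just outside it Diap1 at 597 bp. Just inside the 10 kb limit was the hid site at 9580 bp. Just outside it were optimal summits 11204 bp from Dcp-1 with rank 2418 and 12134 bp from Diap1 with rank 3488, and a stronger one with rank 362 lay 16734 bp from Dcp-1.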

How the data were processed

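Per the labels, both libraries are of larvae with GFP-tagged CG9705. The deposited notes describe narrowPeak files on dm6, each called with a control alignment, and an optimal set derived from the other 3. Aligner, peak caller and reproducibility threshold stand as not given in the sources used here. Peaks were ranked within a list by the score the authors deposited. The deposited −log10 q value could not rank them, since it ties at the top for 2929 pooled peaks, 3668 in replicate 1 and 4301 in replicate 2.

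Genes and starts came from Ensembl release 115 (BDGP6.54), without transposable elements, and sequences from RefSeq Release 6. A distance is that of a summit from a start, upstream negative. The upper part of the optimal set used as a stricter threshold holds 1766 peaks. With 1 group and 2 replicates no test was made: counts stand beside the same share over all 13945 protein-coding genes. The files give no read counts and signal tracks were not used here, so no interval based on depth is given. The members and gene lists were chosen with earlier results of these data known. All 9 core genes are named, as are the other cell death genes with an optimal start peak, the 4 highest-scoring with only a relaxed one, and the genes and optimal peaks between hid and skl; neighbouring genes were named from their position. One neighbouring gene is not reported here. The 4 genes with none and the edges of the rules were named after their values were seen. Counting was tested on simulated data. Python 3.11.15, numpy 2.4.6, pandas 2.3.3 and matplotlib 3.10.9 were used.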

Additional observations from a re-analysis of the deposited data

How the results depend on the processing

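Core genes with a peak at a start were 2 with the optimal set and 3 with each replicate alone, 1 with a 250 bp window and 7 with the relaxed pooled list. Core genes with a peak in the window were 6, also with each replicate alone, but 1 when only gene bodies counted and 3 when a summit went only to its nearest start. Summits in the windows numbered 15, from 16 to 17 with 1 replicate alone, 4 in gene bodies, 23 with 20 kb and 76 in the relaxed list. Between hid and skl there were 6, from 6 to 8 with 1 replicate alone and 60 in the relaxed list. The other cell death genes at a start were 13, from 12 to 14 with 1 replicate alone, 6 in the upper 1766 optimal peaks and 32 in the relaxed list. Each of these settings adds or removes peaks or sequence, and the cause of the changes was not tested. The share of all protein-coding genes with a peak at a start moved in the same direction. It was lower in the upper 1766 optimal peaks than in the whole optimal set, and higher in the relaxed list. The fall from 13 to 6 and the rise to 32 are therefore not changes relative to other genes, which were not tested. Matches of the 15 summits in both replicates were 14 or 15 under the other matching rules and 11 among the best peaks of each replicate, against 12. No paired analysis was possible because there is 1 group. Depth is unknown, and a site absent from the relaxed lists may have signal below their cut.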

Other observations

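Transcriptional regulators of the cell death genes were looked at after the values of the core genes were known, as 10 genes named from background knowledge. All 10 had a relaxed pooled summit within 500 bp of a start, against 53.9% of all protein-coding genes. An optimal one was found at 6, against 19.1%. The best peaks of replicate 1 gave 6, against 18.2%, and those of replicate 2 gave 4, against 19.7%. The windows of these genes were rich in peaks, with from 12 relaxed pooled summits at usp to 84 at EcR, against a median of 7 over all genes. The shares were not adjusted for that. Of the ecdysone pathway, usp, the partner of the ecdysone receptor, had its summit 185 bp upstream of a start with rank 1253. The nuclear receptor gene ftz-f1 had rank 1691 at 209 bp upstream, about as close to lncRNA:CR45939, and the early ecdysone gene Eip74EF had rank 2361 at 276 bp upstream. The early gene br had rank 3445, outside the best peaks of replicate 2. The receptor gene EcR itself had only a relaxed peak in the pooled list, with rank 4812, and Eip93F one with rank 9119. Of the Hippo pathway, which controls Diap1, yki had rank 2154 but its summit was nearer to Gpat4, and its partner sd had a relaxed peak at rank 7802. The cell cycle factor E2f1 had rank 3440 and was among the best peaks of neither replicate, and the Hox gene Abd-B had rank 18064. The share was not tested.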
